A study of Mus musculus with 4 samples.

Results

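P-IV cells were the CD115hi Ly6C- MHC II+ CD301b+ subset of splenic myeloid cells that appears after GM-CSF, called GM-CSF-induced dendritic cells (GMiDCs) in the study. They were divided here by whether a cell held an RNA molecule of Cd209a. In the library of the mice given GM-CSF, P-IV held 313 cells, of which 172 held 1 or more unique molecular identifiers (UMIs, 1 per captured RNA molecule) of Cd209a and 141 held none. These 313 cells were part of 6804 cells in that library and 11631 in the series. The split therefore used Cd209a RNA itself, and every RNA difference between the groups is given as a description of these cells, without a test.

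The study compared CD11b+ FACS-sorted splenocytes of C57BL/6 mice in steady state, with 0 injections, and in mice given GM-CSF, 10 µg once a day for 3 days, whose cells were taken 24 h after the last dose. The mice were 8 to 12 weeks old, and how many were used for a library is not given in the sources used here. CITE-seq read the RNA of each cell together with antibodies carrying DNA tags (antibody-derived tags, ADT) against CD115, CD11c, Ly6C, MHC II and CD301b. There was 1 library per condition, so cells were not treated as replicates, and all intervals below cover counting error only.

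Cd209a belongs to the mouse family of C-type lectins related to human DC-SIGN, which bind carbohydrates on microbes and self glycoproteins. Its relatives lie beside it in the genome, and Cd209b is best known from marginal zone macrophages of the spleen. CD301b, the surface protein that defines P-IV, is another C-type lectin and is encoded by Mgl2. Lyz2, Ccr2 and Plac8 are transcripts for which monocytes are known.

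The RNA carried the markers of the P-IV label. Over all 313 cells, Mgl2 stood at 451 counts per 1000000 UMIs (CPM) and Itgax, which encodes CD11c, at 371 CPM. Csf1r, the gene for CD115, stood at 203 CPM and H2-Aa of MHC class II at 5589 CPM, whereas Ly6c2 had 4 UMIs in all. The cells held a median of 6883 UMIs, and the library 35007567 UMIs.

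Cd209a was unevenly spread over P-IV cells. With 862 UMIs it stood at 383 CPM (95% interval 358 to 410), a mean of 2.75 per cell, yet 45.0% of cells had none. Mgl2, Itgax and Mmp12, a metalloproteinase gene, had similar totals per cell, but their shares of cells at 0 were 21.7, 12.8 and 33.5%. The variance of Cd209a counts was 5.65 times their mean, against 3.32 for Mgl2, 1.62 for Itgax and 5.82 for Mmp12. Among the cells with Cd209a, 30 held 1 UMI, 21 held 2, 32 held 3 and 19 held 4, the median was 4 and the highest cell held 27.

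**Figure D1:**
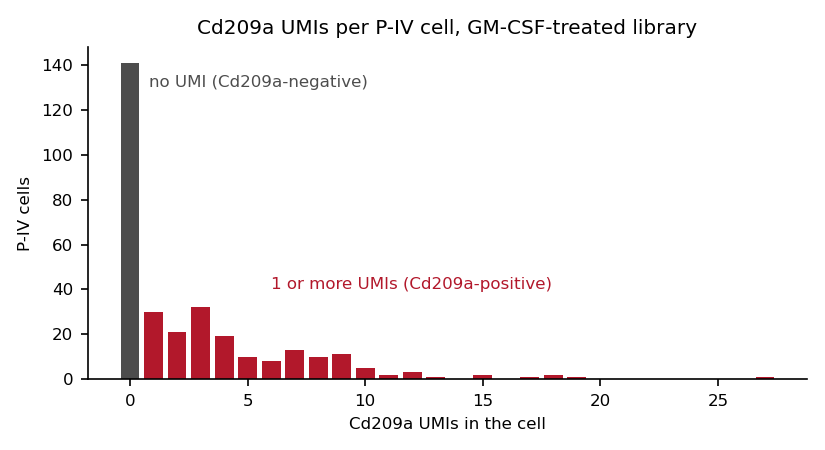
Number of P-IV cells in the library with GM-CSF (vertical axis) by Cd209a UMIs in the cell (horizontal axis), with cells at 0 in grey and all others in red. The bar at 0 holds 141 cells, the bar at 1 holds 30, and the counts of the 172 positive cells reach 27.

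The share of cells with a Cd209a UMI was 55.0% (exact binomial 49.3 to 60.6%). Neutrophils, which should lack the transcript, served as the background for free RNA: 7 of 893 (0.784%) held a UMI at a median of 4404 UMIs per cell. The share depended on depth. From the shallowest to the deepest of 5 depth strata it was 41.3, 52.4, 54.8, 65.1 and 61.3%, and after thinning each cell to 1000 UMIs it was 28.0% (87 of 311), against 1 of 880 neutrophils. A Cd209a-negative cell is therefore one in which no molecule was captured, not one known to lack the transcript. Cd209a-positive cells were the deeper group, with a median of 7316 UMIs and 2499 genes against 6529 UMIs and 2319 genes, and mitochondrial RNA was a median of 4.05 and 4.25% of UMIs.

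Outside P-IV, the transcript was rarer among CD115hi cells of the same library. P-III cells, which share the gate but lack CD301b, held it in 19 of 126 (15.1%; 9.33 to 22.5%), and Ly6C+ P-I monocytes in 11 of 187 (5.88%; 2.97 to 10.3%). In steady state only 7 cells fell into the P-IV gate, 2 of them with the transcript, too few for a comparison.

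The CD301b tag, a protein readout that the split did not use, was higher in Cd209a-positive cells. Their CD301b counts ran from 22 to 2853 with a median of 430 and quartiles of 172 and 953. Cd209a-negative cells ran from 21 to 2071 with a median of 110 and quartiles of 38 and 249. The ranges overlapped almost wholly, while the upper quartile of the negative cells lay below the median of the positive ones. The ratio of the means was 2.49 (634 against 255 counts), and it was 2.38 over the depth strata and 2.14 when each cell's CD301b count was divided by all its tag counts. Both groups had passed the CD301b gate, which sets the lower end of both ranges.

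The other tags differed little. Median counts in Cd209a-positive and Cd209a-negative cells were 112 and 119 of CD115, 18 and 19 of Ly6C, 296.5 and 301 of CD11c, and 539.5 and 479 of MHC II. The ratios of the means were 0.954, 0.939, 0.905 and 0.991. None of these 4 tags separated the groups.

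**Figure D2:**
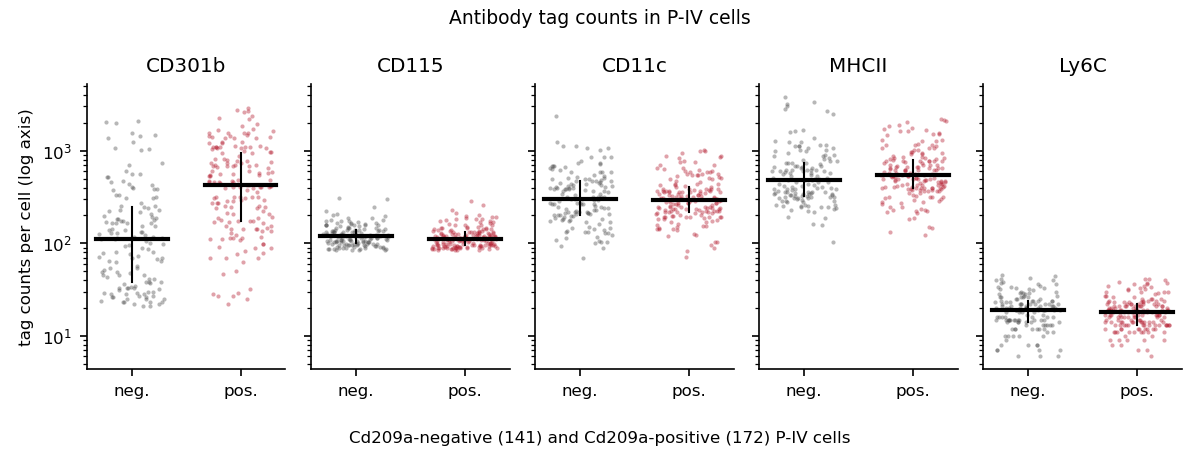
Tag counts per cell (vertical, log axis) for 5 antibodies in Cd209a-negative (grey) and Cd209a-positive (red) P-IV cells; each point is a cell, thick bars are medians and thin bars span the quartiles. The CD301b medians are 110 and 430, and those of the other 4 tags lie close together.

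Read the other way, cells with more CD301b protein more often held Cd209a RNA. From the lowest to the highest quartile of the CD301b tag, the share with a Cd209a UMI was 20.3, 47.4, 69.2 and 83.3%. The Cd209a level was 136, 281, 491 and 593 CPM in the same order, at median depths of 6068, 7172, 7219 and 7001 UMIs per cell. Quartiles of the MHC II tag gave 39.2, 62.8, 60.3 and 57.7%, and those of CD115 gave 62.0, 56.4, 53.8 and 47.4%.

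The relatives Cd209b, Cd209c and Cd209d were found almost wholly in Cd209a-positive cells. Cd209b had 59 UMIs in Cd209a-positive cells and 0 in Cd209a-negative cells, and Cd209c likewise 59 and 0. Against a floor of 3 counts over the negative group, each was at least 13.9-fold higher, and the exact lower limit of the ratio, with counting error in both groups, was 10.9. Cd209d had 58 and 2 UMIs (44.0 and 2.15 CPM), a ratio of 20.5 (5.41 to 173). Cd209e had 5 and 0 UMIs, and Cd209f and Cd209g had none in either group.

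Since reads of near-identical genes can be assigned to the wrong copy, the longest stretches that the Cd209a transcript shares with these 3 relatives are shown, in GENCODE M21 transcripts on GRCm38, the minus strand of chromosome 8. Capitals mark the identical run, lower case the bases around it, and all bases shown are coding. The first pair is Cd209a exon 5 (chr8:3746994-3747021) and Cd209b exon 8 (chr8:3921453-3921480).
Cd209a: cgctcCTGCCCCTGGGACTGGACgcact
Cd209b: cgactCTGCCCCTGGGACTGGACattcc
The second pair is Cd209a exon 5 (chr8:3746994-3747020) and Cd209c exon 3 (chr8:3945000-3945026).
Cd209a: gctccTGCCCCTGGGACTGGACgcact
Cd209c: gccctTGCCCCTGGGACTGGACagtct
The third pair is Cd209a exon 5 (chr8:3746964-3746993) and Cd209d exon 5 (chr8:3876337-3876366).
Cd209a: tccaaGGAAGCTGTTACTTCTTCTCtgtgg
Cd209d: tcaatGGAAGCTGTTACTTCTTCTCcaagt
The identical runs were 18, 17 and 20 bases long. The stretches shown ended 1061, 1061 and 1031 bases before the end of the Cd209a transcript. In Cd209b, Cd209c and Cd209d this distance was 1394, 432 and 480 bases. The study used a 3' library kit, and where the reads of these genes lay was not examined. The closest ungapped window of 100 bases, the length of a read, differed from Cd209a at 22 positions in Cd209b, 19 in Cd209c and 24 in Cd209d at best. How the counting treated reads of these paralogs was not examined, and their levels are given with that reserve.

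The relatives differed in how their levels stood beside that of Cd209a, which was 136, 368, 626 and 1167 CPM in cells with 1, 2 to 3, 4 to 6 and 7 or more of its UMIs. Cd209b stood at 0 CPM in cells with 0 or 1 Cd209a UMI, at 5.33 CPM with 2 to 3, at 28.8 with 4 to 6 and at 110 (81.4 to 145) with 7 or more. Cd209c stood at 22.7, 53.3, 32.4 and 56.1 CPM over the same classes from 1 UMI upwards. Cd209d stood at 18.2, 21.3, 36.0 and 80.8 CPM. Cd209b was thus concentrated in cells with the most Cd209a: its 59 UMIs came from 22 cells, whereas those of Cd209c came from 44. In the 22 cells of the library that the authors named macrophages, Cd209b had 0 of 47251 UMIs, for which the exact Poisson upper limit was 78.1 CPM.

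Several genes near Cd209a on chromosome 8 were higher as well, a pattern noticed after the values were seen. Of 22 other genes within 300 kb in the table, 8 had 50 or more UMIs, and 5 of these, Cd209b, Cd209c, Cd209d, Trappc5 and Mcemp1, were at least 1.5-fold higher, against 3.73% of all genes. Trappc5 (chr8:3676299-3681255), 62.1 kb from Cd209a and coding for a subunit of the TRAPP complex of vesicle transport, had 198 and 47 UMIs (150 and 50.5 CPM), a ratio of 2.97 (2.15 to 4.18). Its longest run shared with Cd209a was 12 bases. Clec4g, a lectin gene 22.7 kb away, had 16 UMIs and 1 UMI, a ratio of 11.3 with an interval of 1.75 to 473. The ratio of Mcemp1 was 1.53 (0.854 to 2.84, from 39 and 18 UMIs), and Stxbp2 and Pet100, with ratios of 1.22 and 1.41, stayed within the fold. Neighbours under 50 UMIs also went the other way, with ratios of 0.609 for Xab2 (19 and 22 UMIs) and 0.705 for both Pex11g and Zfp358.

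Across the table, few genes differed between Cd209a-positive and Cd209a-negative cells. Of 5414 genes with 50 or more UMIs over both groups, 202 (3.73%) were at least 1.5-fold higher in Cd209a-positive cells and 183 (3.38%) at least 1.5-fold lower, and the median ratio was 1.001. Genes of high count were rarely past this fold: among the 575 genes with 500 or more UMIs, 3 (0.522%) were higher and 8 (1.39%) lower. Compared within the 5 depth strata, 220 genes (4.06%) were higher and 178 (3.29%) lower. The 12 genes with the highest lower limit and the 12 with the lowest upper limit of the ratio are described below.

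**Figure D3:**
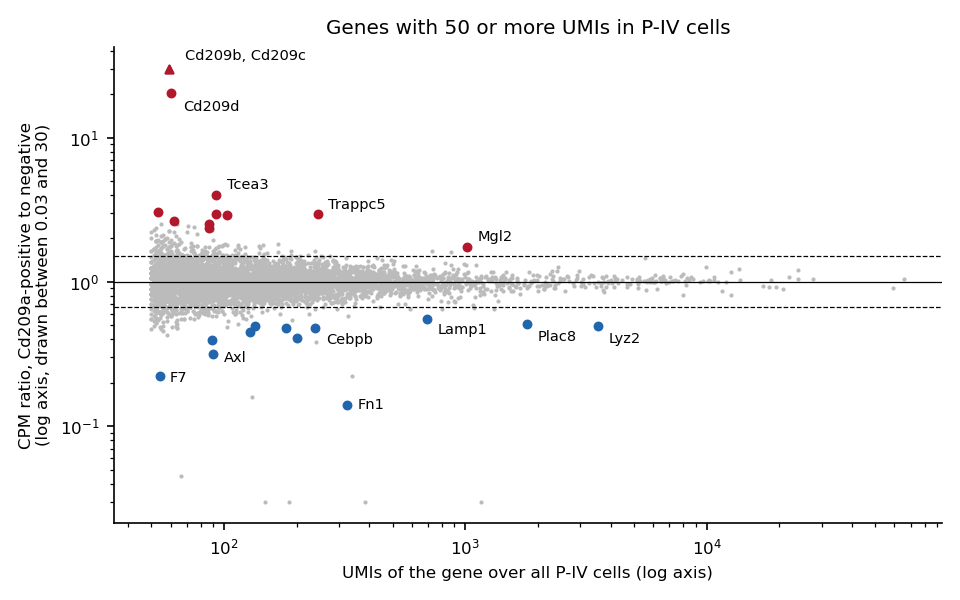
CPM ratio of Cd209a-positive to Cd209a-negative P-IV cells (vertical, log axis) against the UMIs of each gene (horizontal, log axis), with dashed lines at 1.5-fold. Red and blue points are the 12 named genes in each direction, triangles at the top mark Cd209b and Cd209c with 0 UMIs in negative cells, and the 4 grey points along the bottom are haemoglobin genes held by 1 cell.

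Mgl2, the gene of the CD301b protein (chr11:70130329-70137550), was higher in Cd209a-positive cells, as was the tag. It had 722 and 291 UMIs, 548 and 313 CPM, a ratio of 1.75 (1.53 to 2.01). Within the depth strata the ratio was 1.77. With cells thinned to 1000 UMIs it was 1.16, on 89 and 62 UMIs and not past the fold, and with 3000 UMIs 1.82. In cells with 0, 1, 2 to 3, 4 to 6 and 7 or more Cd209a UMIs it stood at 313, 400, 480, 489 and 714 CPM. Mgl2 was thus higher in each class with more Cd209a, and the cells with 1 UMI lay just above those with none. Of 10 measured C-type lectin receptor genes outside the Cd209 family, 3 were higher and 0 lower, with a median ratio of 0.971, beside 3.73% higher over all genes. Besides Mgl2 these were its neighbour Clec10a, which encodes CD301a, at 142 and 93.6 CPM (ratio 1.52; 1.17 to 1.98), and Klrd1, a receptor gene known from NK cells, at 43.2 and 25.8 CPM (1.68; 1.02 to 2.82). In the CD115-low cells described below only Klrd1 was past the fold, at 2.12, with Mgl2 at 1.46 and Clec10a at 1.22. Clec4a2, an inhibitory lectin receptor, stood at 310 and 315 CPM, and Mrc1, the mannose receptor, at 27.3 and 32.3 CPM.

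The remaining named genes that were higher had low counts and varied functions. Tcea3, a transcription elongation factor, had 79 and 14 UMIs, 59.9 and 15.1 CPM, a ratio of 3.98 (2.24 to 7.61). Ccnd1, which encodes cyclin D1, had 83 and 20 UMIs (2.93; 1.78 to 5.04) with 14.6% of them in 1 cell. Smim5, a gene of a small membrane protein, had 75 and 18 UMIs (2.94; 1.74 to 5.23). These 3 genes remained above 1.5-fold within the depth strata, at 3.88, 2.66 and 2.87. Zmat5 and Ralgapb, genes of a minor spliceosome protein and of a regulator of Ral GTPases, had ratios of 2.52 (1.5 to 4.45) and 2.36 (1.42 to 4.11). Egr1, an immediate early transcription factor, had 43 and 10 UMIs (3.03; 1.5 to 6.77), and Hspa1b, a heat shock protein, 49 and 13 (2.66; 1.42 to 5.34). Of the 15 measured immediate early and heat shock genes these 2 were higher, 1 (Ier3) was lower, and the median ratio was 1.10. Over all genes 3.73% were higher and 3.38% lower. In the CD115-low cells described below 3 of this list were higher and 0 lower, with a median ratio of 1.30. There 3.26% of all genes were higher and 2.39% lower. Fos stood at 57.6 and 47.3 CPM, Jun at 137 and 127 CPM and Hspa8 at 2225 and 2435 CPM.

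Several genes that mark P-IV in the study were higher as well. Of 31 signature genes besides Cd209a, 7 were at least 1.5-fold higher and 0 lower, with a median ratio of 1.23, beside 3.73% and a median of 1.001 over all genes. Without cluster 1 the count was 5 higher. In the CD115-low cells described below it was 1 higher (Kmo, 1.51) and 1 lower (Mmp12, 0.651), with a median ratio of 1.19. The 7 genes higher in P-IV stayed within the fold in those cells, from 1.26 for Tmem176b to 1.46 for Mgl2. The study chose this list on these cells, so it is not independent evidence of its direction. The Discussion of the study reports no significant difference in other signature genes between Cd209a-positive and Cd209a-negative P-IV cells. It does not name the genes or the test there. The ratios here are of summed counts without a test, so the 2 statements use unlike measures. The 7 genes were Mgl2, Tmem176a and Tmem176b, which code for membrane proteins of dendritic cells, Lmo1, Gfra2, Slc27a3 and Il1rl1. Tmem176b had 605 and 263 UMIs (459 and 283 CPM; ratio 1.62, 1.4 to 1.88), and Tmem176a 510 and 220 (387 and 237 CPM; 1.64, 1.39 to 1.92). Il1rl1, the receptor of interleukin-33, stood at 88.0 and 54.8 CPM (1.60; 1.14 to 2.28). Itgax, Mmp12 and Cd24a, members of the same list, stood at 364 and 380 CPM, 335 and 404 CPM, and 324 and 334 CPM.

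The most abundant MHC class II genes were slightly higher. Cd74, the invariant chain, stood at 11424 and 9500 CPM (ratio 1.20; 1.17 to 1.23), H2-Ab1 at 6543 and 5299 CPM (1.23; 1.19 to 1.28) and H2-Eb1 at 4817 and 3823 CPM (1.26; 1.21 to 1.31). Of 12 measured genes of the presentation pathway, 1 was past the fold, beside 3.73% higher over all genes: H2-Oa, of the H2-O complex that restrains peptide loading, at 41.7 and 17.2 CPM (2.42; 1.37 to 4.53). The list's median ratio was 1.14. Ctss, a protease that processes the invariant chain, went the other way, at 833 and 964 CPM (0.864; 0.791 to 0.945). Cst3, an inhibitor of such proteases and abundant in dendritic cells, stood at 2851 and 1935 CPM, a ratio of 1.47 just within the fold; it was picked after its values were seen.

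Transcripts of monocytes were lower in Cd209a-positive cells, though not as a whole list. Of 14 measured monocyte genes 5 were at least 1.5-fold lower and 0 higher, with a median ratio of 0.836, beside 3.38% lower among all genes. Fn1, which encodes fibronectin (chr1:71585520-71653200), had 54 and 270 UMIs, 41.0 and 290 CPM, a ratio of 0.141 (0.103 to 0.190). It was uneven from cell to cell: its UMIs came from 26 Cd209a-positive and 51 Cd209a-negative cells, and 16.0% of them from 1 negative cell, without which the ratio was 0.172. Lyz2, the lysozyme of myeloid cells (chr10:117277331-117282321), had 1462 and 2093 UMIs, 1109 and 2251 CPM, a ratio of 0.493 (0.461 to 0.527). Plac8 stood at 573 and 1119 CPM (0.512; 0.465 to 0.562). Cebpb, a transcription factor of myeloid cells, stood at 73.6 and 153 CPM (0.482; 0.368 to 0.628), and Ccr2, the chemokine receptor by which monocytes leave the bone marrow, at 478 and 734 CPM (0.651; 0.583 to 0.726). Other members of the list did not differ by the fold, with S100a6 at 1916 and 1839 CPM, S100a4 at 935 and 853 CPM and Csf1r at 188 and 224 CPM.

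Some monocyte transcripts were highest in a cluster of cells poor in Cd209a. In cluster 1 of the authors, 7 of 41 P-IV cells (17.1%) held Cd209a, and over all 41 cells Lyz2 stood at 4078 CPM and Plac8 at 2559 CPM. In cluster 0, the largest, 111 of 167 (66.5%) held it, with Lyz2 at 1224 CPM and Plac8 at 432 CPM. Cluster 1 made up 24.1% of Cd209a-negative and 4.07% of Cd209a-positive cells. Without its cells the ratios were 0.621 for Lyz2, 0.586 for Plac8, 0.597 for Cebpb, 0.690 for Ccr2 and 0.139 for Fn1. Within cluster 0 they were 0.632, 0.775, 0.652, 0.654 and 0.114, so that Plac8 was no longer past the fold there. Within cluster 1, Plac8 went the other way, at 3461 CPM in 7 Cd209a-positive and 2341 CPM in 34 Cd209a-negative cells (ratio 1.48; 1.23 to 1.77). Within cluster 0, Mgl2 had a ratio of 1.62 and the CD301b tag medians of 458 and 183. The clusters were built from RNA that includes these genes, so their composition is itself no result.

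Genes of lipid uptake and lysosomes were lower too, in P-IV largely through 3 cells. Of 13 measured genes 7 were at least 1.5-fold lower and 0 higher, with a median ratio of 0.648, beside 3.38% lower over all genes. The 3 cells with the most Cd63 UMIs, all Cd209a-negative, of cluster 0, in G1 and not called doublets, held 86.4% of the UMIs of Cd63, a tetraspanin of late endosomes, 35.7% of Lpl, lipoprotein lipase, and 30.3% of Ctsd, a lysosomal protease. They also held 44.4% of F7, the coagulation factor VII, 25.8% of Cd36, a scavenger receptor for lipids, and 22.2% of Axl, a receptor for apoptotic cells. Without these cells the count was 3 of 13 and the median ratio 0.790, while over all genes 3.2% were then lower and 3.61% higher. Lpl then had a ratio of 0.402 (0.301 to 0.533) in place of 0.221, and Cd36 one of 0.755 (0.495 to 1.16) in place of 0.452. Lamp1, a membrane protein of lysosomes (chr8:13159161-13175338), was not dominated by them: it had 303 and 389 UMIs, 230 and 418 CPM, a ratio of 0.549 (0.471 to 0.640), and 0.572 without the 3 cells, but 0.714 (0.568 to 0.900) within cluster 0. The CD115-low cells described below do not include the 3 cells. There 5 genes of the list were lower and 0 higher, with a median ratio of 0.793, beside 2.39% lower over all genes. Lpl had a ratio of 0.301 (0.261 to 0.348) in those cells, Cd36 of 0.434 (0.342 to 0.550) and F7 of 0.257 (0.161 to 0.403).

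Among the other named genes that were lower, F7 and Axl rested on few molecules. F7 had 13 and 41 UMIs, a ratio of 0.224 (0.110 to 0.426) that became 0.520 (0.232 to 1.14) without the 3 cells and 0.75 with 3000 UMIs per cell (5 and 5 UMIs), and Axl 28 and 62, a ratio of 0.319 that became 0.453 (0.270 to 0.748). Pla2g7, which degrades platelet-activating factor, had 73 and 127 UMIs and ratios of 0.405 with and 0.511 without them. Gtf2h1, of the transcription factor TFIIH, had 32 and 57 UMIs (0.396; 0.249 to 0.621). Gbp2, an interferon-induced GTPase, had 73 and 107 UMIs (0.481; 0.352 to 0.654), 18.9% of them in 1 cell, without which the ratio was 0.702. AW112010 had 55 and 79 UMIs (0.491; 0.342 to 0.702). Beside 3.38% lower over all genes, of 9 measured genes of the type I interferon response 0 were higher and 2 lower (1 in CD115-low cells), Ifi204 at 31.9 and 65.6 CPM and Xaf1 at 19.0 and 31.2 CPM.

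Markers of other cell types were looked for in both groups. The 16 macrophage markers summed to 432 CPM in Cd209a-positive and 606 CPM in Cd209a-negative cells, with medians per cell of 402 and 407 CPM and highest cells of 1658 and 9433 CPM. Of 6 measured ones, 0 were higher and 2 were lower, beside 3.38% lower over all genes: Axl, and Hmox1, which degrades haem, whose 131 UMIs lay to 44.3% in 1 negative cell. Cd68 and Adgre1, the measured ones with the most UMIs, had ratios of 1.01 and 0.981. Under 50 UMIs, Cd163 had 11 and 0 UMIs and C1qb 8 and 18. The study, which also divided P-IV by Cd209a RNA, describes its macrophage marker genes as similar in both groups. Its P-IV set had fewer cells than the 313 used here and a larger share with Cd209a, so the groups are not the same sets of cells. All 4 measured erythroid genes, the haemoglobins, were lower through 1 Cd209a-negative cell of cluster 0 that held 1877 of the 1881 haemoglobin UMIs of all P-IV cells. Neutrophil markers summed to 229 and 285 CPM, from 0 to 3418 CPM per positive cell and from 0 to 5242 CPM per negative cell. B cell markers had 2 UMIs in each group, and T cell markers 1 UMI and 0. NK cell markers had 93 and 48 UMIs and plasmacytoid dendritic cell markers 196 and 128. Of 2 measured plasmacytoid members 1 was higher, Tcf4 at 68 and 21 UMIs, beside 3.73% higher over all genes. In the CD115-low cells described below 0 were higher, with a median ratio of 1.04. Of the markers of conventional dendritic cells of types 1 and 2, 0 of 2 and 0 of 1 measured members were past the fold. Their part in the results was not tested.

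Dendritic cell genes were within the fold over all P-IV cells. Of 11 measured, 0 were past the fold in either direction and the median ratio was 0.959. Over all genes 3.73% were higher and 3.38% lower, so a count of 0 is near those shares and no result about the list. Without cluster 1, 1 of these genes was higher. In the CD115-low cells described below 2 were higher and 0 lower, beside 3.26% higher over all genes there. Sirpa stood at 330 and 373 CPM, Irf4, a transcription factor of type 2 dendritic cells, at 47.8 and 63.4 CPM, and Zbtb46, a transcription factor that marks dendritic cells, at 32.6 and 35.5 CPM. The GM-CSF receptor and its signalling genes were likewise within the fold (0 of 8 in either direction, median 1.07), a count also near the shares over all genes. Csf2rb stood at 225 and 273 CPM and Csf2ra at 240 and 206 CPM. Without the 3 cells named above 1 of this list was higher, with a median ratio of 1.18. Without cluster 1, and in CD115-low cells, 1 was lower. Of 5 measured genes of costimulation and checkpoint ligands 0 were past the fold, beside the same shares over all genes. Of 7 in the study's T helper 2 list 1 was higher and 0 lower, beside 3.73% higher over all genes. Of 7 measured chemokine and chemokine receptor genes 0 were higher and 2 lower, Ccr2 and Cxcl16, with a median ratio of 0.751, beside 3.38% lower over all genes. The count was 1 lower over the depth strata, without cluster 1 and in CD115-low cells. Ccl17, a chemokine for T cells, stood at 37.2 and 49.5 CPM with 31.6% of its UMIs in the 3 cells named above, and its ratio turned from 0.751 to 2.08 without them.

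Cell cycle genes gave no stable difference, and the difference in phases varied in size with depth. By the phases deposited with the cells, 27.3% of Cd209a-positive (20.8 to 34.6%) and 35.5% of Cd209a-negative cells (27.6 to 44.0%) were in S or G2/M. In the deeper part of the cells the shares were 36.1 and 37.3%, and in the shallower part 16.0 and 34.1%. With 2 or more Cd209a UMIs against 0 they were 23.9 and 35.5%. The share was lower in Cd209a-positive cells each time, though the intervals over all P-IV cells overlapped. Of 18 measured cell cycle genes 1 (Cenpe) was higher and 0 lower, beside 3.73% higher over all genes, with a median ratio of 1.08. Within the depth strata 0 were higher and 1 lower, with a median of 0.975. Top2a, a topoisomerase of dividing cells, stood at 225 and 232 CPM, and Mki67 at 194 and 170 CPM.

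Cells with few Cd209a molecules were set beside those with none and those with more. The cells just inside the split, 30 with 1 UMI, had a median CD301b tag of 273, between 110 in cells without the transcript and 442, 419 and 470.5 in cells with 2 to 3, 4 to 6 and 7 or more. For the 5 lower genes that follow, cells with 1 UMI already lay below those with none. Plac8 stood at 1119 CPM with 0 UMIs and at 505, 552, 590 and 613 CPM from 1 UMI upwards. Fn1 stood at 290 and then at 54.6, 53.3, 32.4 and 29.2 CPM, and Lamp1 at 418 and then at 186, 232, 223 and 254 CPM. Ccr2 stood at 734 and then at 446, 496, 421 and 514 CPM. Lyz2 stood at 2251 and then at 1351, 1136, 1206 and 907 CPM. Cebpb, also lower, changed more gradually, at 153 and then at 100, 72.0, 39.6 and 83.1 CPM. Its interval with 1 UMI (62.7 to 151) overlapped that with 0 (129 to 180). Fn1 rested on 12 UMIs in the class with 1 UMI. Cluster 1 made up 24.1% of the cells without Cd209a, and the classes were not repeated without it. Trappc5, which was higher, stood at 50.5 and then at 123, 101, 176 and 189 CPM.

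**Figure D4:**
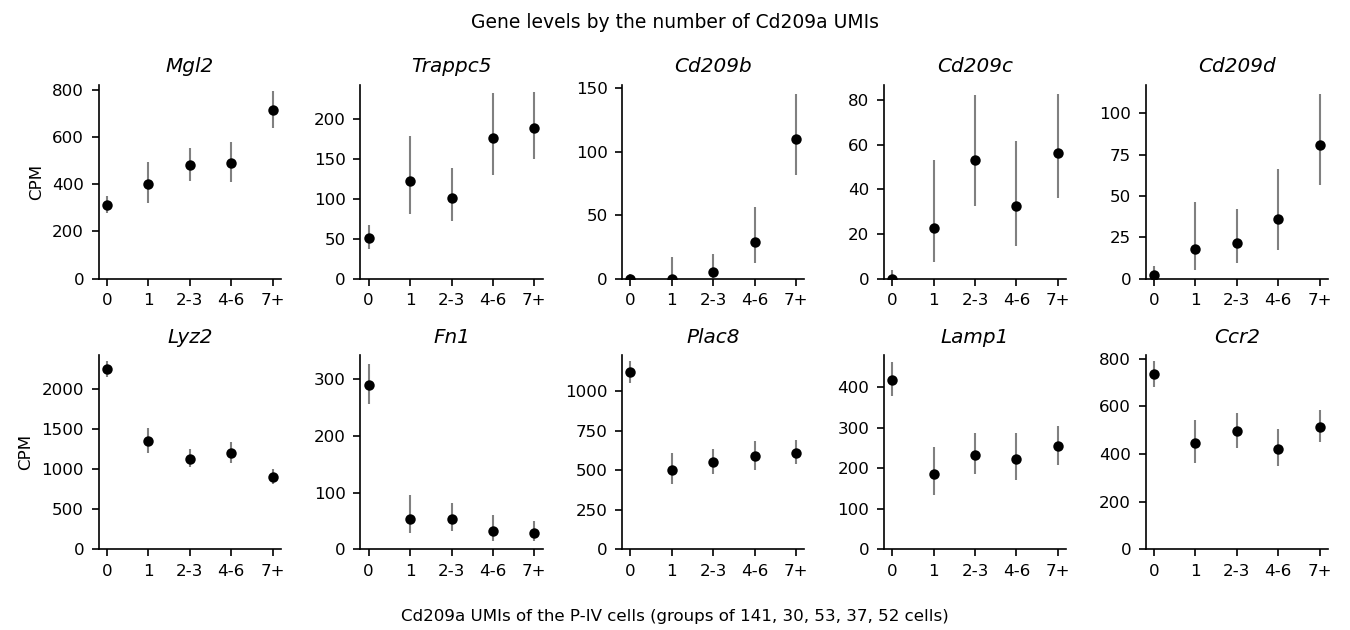
Level in CPM (vertical, each panel from 0) of 10 genes in P-IV cells grouped by Cd209a UMIs (horizontal), with exact Poisson intervals for counting error. Mgl2, Trappc5, Cd209b and Cd209d are highest in the cells with 7 or more Cd209a UMIs, whereas Fn1, Plac8, Lamp1 and Ccr2 are lower in every class with Cd209a than in cells without it.

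The split was repeated in cells that the rule had not used. In the same library, 1119 cells outside the CD115hi gate met the P-IV limits of the Ly6C, MHC II and CD301b tags, and 725 of them (64.8%; 61.9 to 67.6%) held Cd209a. These CD115-low cells share the library with P-IV and are no replicate of the condition. All 12 genes named as higher had ratios above 1 there, 8 of them at least 1.5, with a median of 2.02, and all 12 named as lower had ratios under 1, 9 of them past the fold, with a median of 0.514. Of the 5414 genes, 51.1% had ratios above 1 in these cells, and past the fold were 3.26% higher and 2.39% lower of the 8424 with enough UMIs.

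Single genes differed in how far their ratios held. Cd209b had 217 and 3 UMIs in Cd209a-positive and Cd209a-negative CD115-low cells, Cd209c 193 and 8, and Cd209d 239 and 12 (ratio 9.92; 5.57 to 19.5). Trappc5 had a ratio of 2.31 (1.97 to 2.73), Tcea3 of 2.84 (2.22 to 3.67) and Clec4g, with 58 and 2 UMIs, of 14.4. Fn1 had a ratio of 0.174 (0.139 to 0.217), Lyz2 of 0.511 (0.491 to 0.532) and Cebpb of 0.458 (0.392 to 0.536). Plac8 and Lamp1 were lower but within the fold, at 0.691 (0.658 to 0.725) and 0.674 (0.618 to 0.735). Zmat5 was higher but within it, at 1.34 (1.03 to 1.76). Mgl2 was higher by less, at 1.46 (1.36 to 1.57), and the CD301b tag had medians of 189 and 91.5 and a ratio of means of 1.41. Smim5, Ralgapb and Gtf2h1 had ratios of 1.11 (0.868 to 1.43), 1.14 (0.871 to 1.51) and 0.840 (0.670 to 1.06), whose intervals include 1. Among the neighbours of Cd209a, Mcemp1 had a ratio of 1.39 and Pet100 one of 0.903. Of the monocyte genes 3 were lower and 0 higher, beside 2.39% lower over all genes in these cells.

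**Figure D5:**
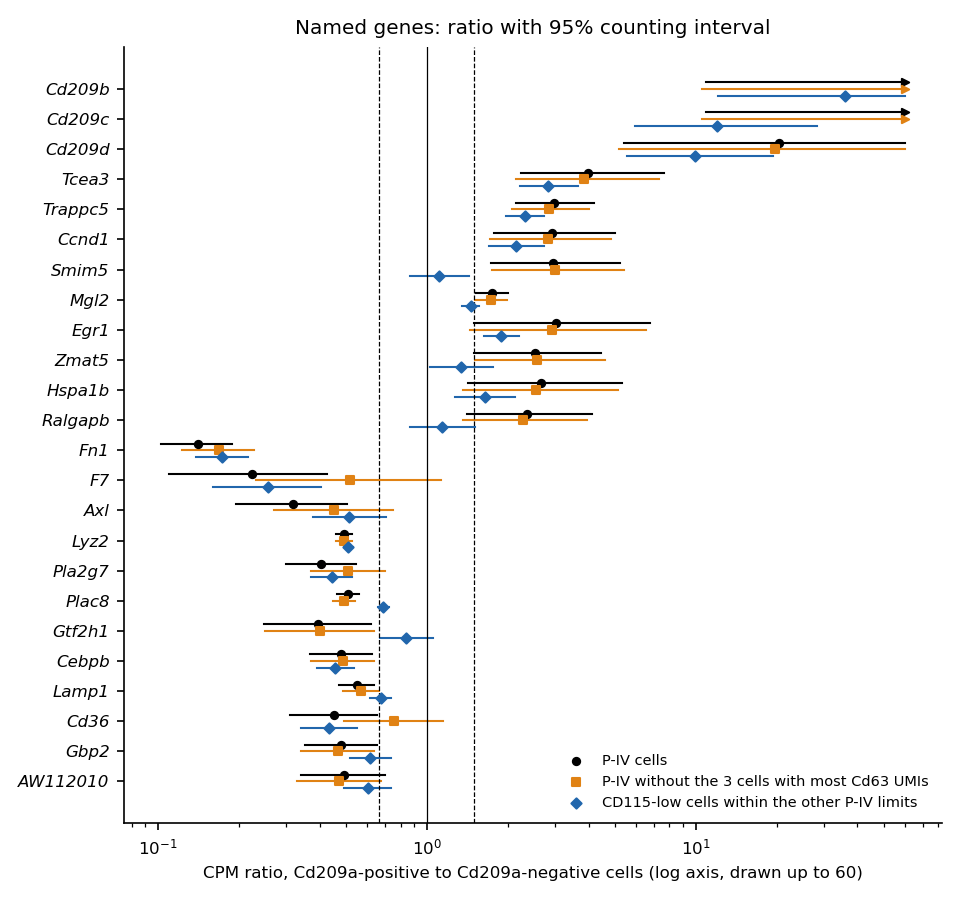
CPM ratio of Cd209a-positive to Cd209a-negative cells (horizontal, log axis) for the 24 named genes in P-IV cells (black), in P-IV without the 3 cells with the most Cd63 UMIs (orange) and in CD115-low cells (blue), with 95% counting intervals. Arrowheads at the right mark genes with 0 UMIs in negative cells; F7 and Cd36 move towards 1 without the 3 cells, and all 24 genes lie on the same side of 1 in the CD115-low cells.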

How the data were processed

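The unit of the RNA and tag matrices is the raw count deposited by the authors (UMIs per gene, counts per tag). Per the study's methods and submitters' notes they were made with Cell Ranger 3.0.2 on mm10 and CITE-seq-Count, and filtered in Seurat 3.6.0. Mitochondrial UMIs are deposited in percent. Subsets, clusters and phases are the authors' labels, and the P-IV gate was set by the authors on the tags. The 2 libraries share 8 barcodes, kept apart by library.

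Here, counts were summed over cells and divided by all UMIs (CPM). Ratios carry exact binomial-share intervals, levels exact Poisson and shares Clopper-Pearson intervals at 95%. The ratio and interval code was tested on simulated data with independent Poisson counts per cell, the model that the intervals assume. Counts of genes such as Cd209a and Mgl2 varied more than that between cells. The simulation therefore checks the code and not how well the intervals cover such spread. Past the fold means a ratio of at least 1.5 or at most 1/1.5 among genes with 50 or more UMIs. Depth was handled by Mantel-Haenszel ratios over 5 strata and by thinning to 1000 UMIs per cell (2 cells left out). Scrublet (scanpy 1.11.5) called 2.73% of the library doublets, which were kept. Named genes are the 12 with the highest lower and the 12 with the lowest upper limit of the ratio, no cell holding over 20% of the UMIs and the ratio over depth strata on the same side of 1, together with members of 23 gene lists having most UMIs or past the fold. Other list members and the chromosome 8 neighbours were named after their values were seen. The members and lists were chosen with earlier results of these data known. Coordinates and transcripts are from GENCODE M21 (GRCm38, the build of mm10). Python 3.11.15, numpy 2.4.6, scipy 1.17.1 and pandas 2.3.3 were used. The bulk RNA-seq was not used here.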

Additional observations from a re-analysis of the deposited data

How the results depend on the processing

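With 1 library per condition no test between groups of cells was made, and leaving out a replicate was not possible. No paired analysis was possible because there is 1 library per condition and the result comes from no test. The share of P-IV cells with a Cd209a UMI was 28.0% with 1000 UMIs per cell and 45.4% when 2 or more UMIs were asked for; it stayed within its interval without doublets, in G1 cells and with both libraries pooled. Counts past the fold varied with the genes tested, and stood at 202 higher and 183 lower of 5414 in the main form. Thinning gave 36 higher and 50 lower of 870 genes with 1000 UMIs per cell, and 113 and 88 of 2650 with 3000. A minimum of 25 UMIs gave 467 and 414 of 7307, one of 100 gave 41 and 48 of 3310. No minimum, with 0.5 counts added, gave 2015 and 1700 of 12032. With the mean of CPM per cell 285 of 5414 genes were lower and 287 higher, and the cause was not tested. As shares of all tag counts of a cell, whose total includes CD301b, the ratios were 0.727 for CD115, 0.750 for CD11c and 0.714 for Ly6C. In CD115-low cells the CD301b ratio was 1.41. Among the named genes 2 values changed direction, both with 1000 UMIs per cell: Zmat5 to 0.808 (2 and 2 UMIs) and Cd36 to 1.52 (15 and 8 UMIs); at 3000 UMIs they were 2.88 and 0.445. Mgl2 was 1.16 at 1000 UMIs (89 and 62 UMIs) and 1.82 at 3000. The erythroid list turned from a median of 0 to 2.10 without the cell with haemoglobin. Leaving out that cell, cluster 1 or the 3 cells rich in Cd63, thinning to 3000 UMIs and reading tags in CD115-low cells were chosen after seeing the data. With the 7 steady-state P-IV cells added, Lyz2 was 0.417, Cebpb 0.284 and Hspa1b 1.16.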
